A study of Mus musculus with 7 samples.

Results

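The 10 genes described here encode small leucine-rich proteoglycans (SLRPs) and matricellular proteins, which sit between the collagen fibrils and the cells of bone, cartilage and tendon. They were taken by symbol (Dcn, Bgn, Aspn, Lum, Fmod, Omd, Ogn, Sparc, Tnc and Postn), and all 10 were found among 42687 gene identifiers. RNA was measured in cells carrying CD24 and CD29 that were sorted from digested femurs of C57BL/6 mice, a population labelled as skeletal stem cells of bone. The mice were 3 months old when the diets began and ate food with 60% fat (high fat diet, HFD, 3 libraries numbered 2 to 4) or 10% fat (low fat diet, LFD, 4 libraries numbered 1 to 4) over 4 weeks. The comparison asks which transcripts of the sorted cells differed between the diets. The labels do not say whether each library came from 1 animal or from a pool, so the p-values measure the spread between these libraries, which may be technical in part.

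SLRPs are secreted proteins built from leucine-rich repeats, and most carry glycosaminoglycan chains. They bind collagen fibrils and set fibril width and spacing, and several also bind TGF-beta in the matrix. Matricellular proteins are secreted into the matrix and act mainly on the attachment, migration and signalling of cells rather than as structural parts. In bone, SPARC is among the most abundant noncollagenous proteins, tenascin C marks condensing and healing skeletal tissue, and periostin is known from the periosteum and the periodontal ligament.

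Library totals ranged from 17391613 to 24681838 counts. Every HFD library had 0 counts of Xist and 1419 to 2069 counts of the Y-linked gene Ddx3y, whereas LFD libraries had 257 to 526 and 0 to 3 counts. Diet and sex therefore cannot be told apart below, which bears directly on Bgn, an X-linked gene. Itgb1, which encodes CD29, measured 379.5 to 496 CPM in HFD and 368 to 488 CPM in LFD, where CPM is counts per 1e6 of the TMM-scaled library total. Cd24a measured 773 to 3001 CPM in HFD and 1522 to 4846 CPM in LFD, and its lowest library, HFD 2, also had the lowest sum over 12 erythroid markers (24957 CPM, against 83778 to 176863 CPM in the others). Summed markers of marrow reticular stroma (7 genes, all higher in HFD without overlap) were 1713 to 2807 CPM in HFD and 171 to 417 CPM in LFD, and those of granulocytes (10 genes, all higher in HFD on average and 8 without overlap) 8367 to 16355 CPM in HFD and 950 to 5381 CPM in LFD. Of all 14304 tested genes, 8.4% were higher in HFD without overlap. Osteoblast markers (39321 to 62859 CPM in HFD, 13046 to 43686 CPM in LFD) and chondrocyte markers (35016 to 60084 CPM in HFD, 21648 to 45689 CPM in LFD) were abundant in every library, and the sum of 6 endothelial markers was near 0 (4.05 to 6.85 CPM in HFD, 8.61 to 25.7 CPM in LFD). Type I collagen dominated the osteoblast list (Col1a2, 21778 ± 5777 CPM in HFD), Cxcl12 the stromal list (1554 ± 434 CPM in HFD, 97.1 ± 90.3 CPM in LFD) and Hbb-bs the erythroid list. The sums of fibroblast markers (2667 to 4201 CPM in HFD, 2364 to 4799 CPM in LFD) and tendon markers (1673 to 2402 CPM in HFD, 1082 to 2367 CPM in LFD) overlapped between the diets. Single genes differed from these sums, with 1 of 9 fibroblast and 1 of 6 tendon markers higher in HFD without overlap. The tendon gene was Tnmd (22.6 to 37.8 CPM in HFD, 4.25 to 8.49 CPM in LFD). On average 5 tendon markers were higher and 1 was lower in HFD. The sums of monocyte markers did not overlap (1508 to 1966 CPM in HFD, 118 to 727 CPM in LFD), and Lyz2 made up most of them, while 3 of the 8 genes separated the diets on their own. Sums of osteoclast markers (582 to 1167 CPM in HFD, 135 to 406 CPM in LFD) and B lineage markers (57.6 to 98.2 CPM in HFD, 10.4 to 55.1 CPM in LFD) were also higher in every HFD library. Those of pericytes and smooth muscle (153 to 160 CPM in HFD, 331 to 584 CPM in LFD) and muscle satellite cells (171 to 241 CPM in HFD, 289.7 to 478 CPM in LFD) were lower. Without overlap, 4 of the 6 tested pericyte and smooth muscle markers and 3 of the 5 satellite cell markers were lower in HFD. In each of these lists 1 tested marker was higher in HFD on average. Among the 14304 tested genes, 497 were lower in HFD without overlap. Mmp9 made up most of the osteoclast sum in HFD (mean 590 CPM, against 83.7 CPM in LFD). Acp5 was lower in HFD on average (86.1 CPM, against 114 CPM in LFD). Of the 4 osteoclast markers tested, 2 had higher and 2 had lower values in HFD. In sorted bulk samples, fewer cells of a type and less RNA per cell cannot be told apart.

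Promoter sequences are shown for the matricellular pair Tnc and Postn, which were both lowest or near lowest in LFD 1 and highest among LFD libraries in LFD 2, and for Aspn, Omd and Ogn, which lie side by side and yet varied differently. Over all 7 libraries Tnc and Postn did not vary alike. Tnc was highest in HFD 3 (809 CPM) and Postn in LFD 2 (477 CPM). Each run is the 250 bases before the transcription start in RefSeq (GRCm38.p6), 5′ to 3′ on the gene's strand: chr4:64047016-64047265 (minus strand) for Tnc, and on the plus strand chr3:54360857-54361106 for Postn, chr13:49544193-49544442 for Aspn, chr13:49582212-49582461 for Omd and chr13:49607765-49608014 for Ogn. Capitals mark matches, on either strand, to TATAAA (the TATA box), TGANTCA (AP-1), TGTGGT (RUNX) and GGAATG (TEAD).
Tnc: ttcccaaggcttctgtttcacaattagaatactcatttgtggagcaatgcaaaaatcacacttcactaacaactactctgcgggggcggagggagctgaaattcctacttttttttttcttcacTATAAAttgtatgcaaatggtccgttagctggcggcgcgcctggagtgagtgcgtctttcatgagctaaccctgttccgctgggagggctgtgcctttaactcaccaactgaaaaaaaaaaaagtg
Postn: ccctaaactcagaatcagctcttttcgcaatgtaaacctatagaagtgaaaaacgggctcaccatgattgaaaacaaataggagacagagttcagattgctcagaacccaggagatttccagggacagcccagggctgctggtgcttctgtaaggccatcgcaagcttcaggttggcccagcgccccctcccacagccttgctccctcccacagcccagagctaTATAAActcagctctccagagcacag
Aspn: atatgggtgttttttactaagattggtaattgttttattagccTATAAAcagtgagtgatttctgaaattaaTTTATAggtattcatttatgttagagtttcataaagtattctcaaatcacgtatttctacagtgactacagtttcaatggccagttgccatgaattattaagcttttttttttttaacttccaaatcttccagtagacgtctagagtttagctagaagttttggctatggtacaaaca
Omd: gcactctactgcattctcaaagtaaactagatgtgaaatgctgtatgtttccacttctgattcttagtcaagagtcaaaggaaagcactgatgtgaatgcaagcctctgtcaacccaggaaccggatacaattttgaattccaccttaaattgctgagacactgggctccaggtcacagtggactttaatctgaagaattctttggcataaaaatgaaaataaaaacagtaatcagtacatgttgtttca
Ogn: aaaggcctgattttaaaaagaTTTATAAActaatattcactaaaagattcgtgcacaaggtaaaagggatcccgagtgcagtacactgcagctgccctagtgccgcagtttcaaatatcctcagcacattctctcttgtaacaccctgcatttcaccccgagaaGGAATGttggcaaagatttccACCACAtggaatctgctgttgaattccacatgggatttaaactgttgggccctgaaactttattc
In the Postn window the TATA letters begin 26 bases before the start. In the Tnc window they begin 126 bases before it, and in the Aspn window 207 and, on the other strand, 178 bases before it. The Ogn window holds a TATA match on each strand, which overlap, 229 and 227 bases before the start, and 1 match each to the TEAD and RUNX letters, 86 and 65 bases before it. The Omd window holds none of these letters. RefSeq windows were matched for 8 of the 10 genes, not for Dcn and Lum. The RefSeq start used for Sparc lay 3103 bases from its annotated gene start. At any position and on either strand, TATAAA occurred in 4 of the 8 windows and in 12.4% of all 32851 windows of this length. Only the Postn match lay near the start, and the others began 126 to 229 bases before it. The RUNX letters occurred in 1 of the 8 windows and in 4614 of all windows. The TEAD letters occurred in 1 and in 12.6%, and the AP-1 letters in 0 and in 6.75%. The GC content was 30.0% for Aspn, 38.4% for Omd, 42.0% for Ogn, 44.8% for Tnc and 52.0% for Postn, with a median of 52.4% over all windows.

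Per kilobase of annotated exon, Sparc far exceeded the other 9 genes. On the scale of CPM per kilobase of annotated exon, Sparc stood first with 6113 ± 932 in HFD and 3604 ± 330 in LFD (SD, n = 3 and 4 here and below), and it ranked 8 among all genes on this scale. Fmod followed with 1205 ± 345 in HFD and 753 ± 231 in LFD, Dcn with 724 ± 64.8 in HFD and 642 ± 382 in LFD, and Lum with 326 ± 81.5 in HFD and 208 ± 51.9 in LFD. Bgn had 198 ± 37.9 in HFD and 130.1 ± 22.2 in LFD, and Omd 210.2 ± 140.04 in HFD and 83.8 ± 7.30 in LFD, a pair whose order in HFD lay within their spread. Tnc (89.5 ± 23.9 in HFD, 32.1 ± 14.6 in LFD) and Ogn (75.9 ± 5.76 in HFD, 64.3 ± 17.3 in LFD) came next, with Tnc above Ogn within the spread in HFD and below it in LFD. Postn (22.6 ± 13.4 in HFD, 25.7 ± 21.2 in LFD) and Aspn (21.7 ± 11.9 in HFD, 24.9 ± 5.88 in LFD) had the lowest means and were not separated from each other. Sparc alone made up 66.9% to 69.6% of the summed level per kilobase of the 10 genes in HFD libraries and 59.8% to 71.3% in LFD libraries. On this scale Sparc ranked 1 and Lum ranked 4 in all 7 libraries, and Dcn stood above Fmod in LFD 1 alone. The order depends on the exon lengths, which were 5838 bases for Dcn and 3306 for Fmod. In CPM, Dcn stood above Fmod in HFD 4, LFD 3 and LFD 4 as well. Among all genes Bgn ranked 105 and Lum 176 by mean CPM, but 213 and 137 per kilobase.

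Between the diets, edgeR called 0 of the 10 genes at an adjusted p under 0.05, where it called 0.035% of 14304 tested genes. At an unadjusted p under 0.05 there were 4 members with higher values in HFD (Sparc, Bgn, Omd and Tnc) and 0 with lower values, where 5.18% of tested genes were higher and 2.35% lower at that level. That count was 1 without HFD 2, 5 without HFD 4, 2 without HFD 3, LFD 1, LFD 2 or LFD 3, and 1 with the erythroid share of counts as a covariate. The HFD libraries lay above every LFD library for Sparc and Tnc, 2 of 10, where 8.4% of tested genes did. The log2 fold change (HFD over LFD) was above 0 for 8 of 10 members and for 51.5% of tested genes, with a median of 0.63 over the members and 0.02 over all tested genes. DESeq2 called 2 of 10 members, Sparc and Tnc, and 2.25% of the genes it gave an adjusted p. Marker sums also separated the diets fully for several cell types, as given above, and their part in the levels of Sparc and Tnc was not tested.

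**Figure D1:**
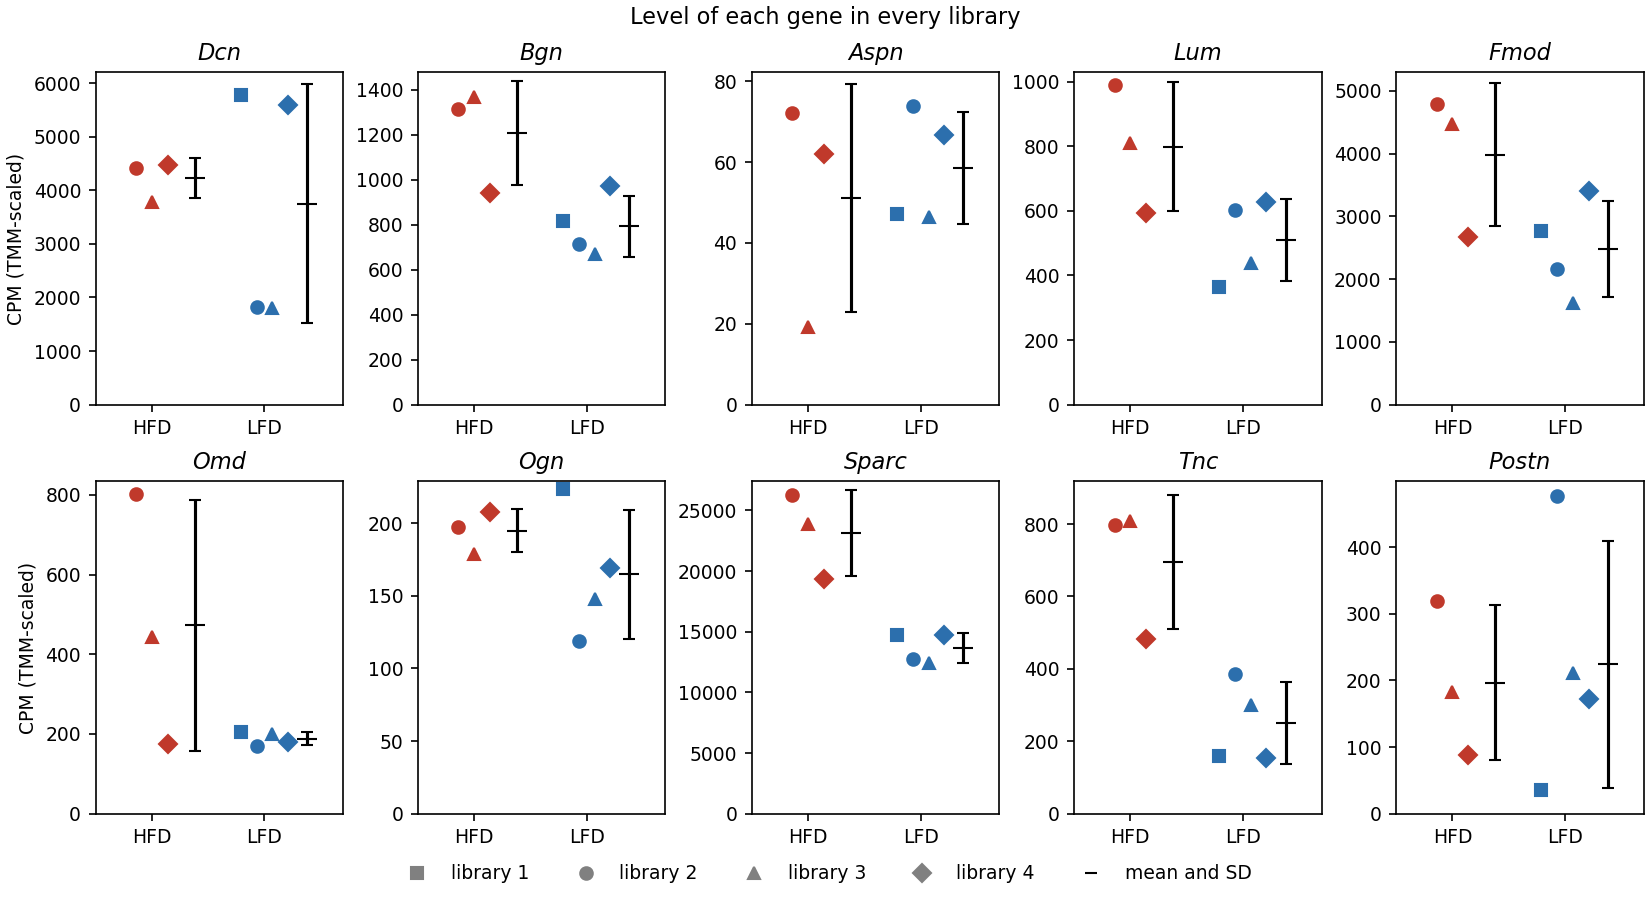
CPM of each of the 10 genes in every library (vertical axes from 0), HFD in red and LFD in blue, with the mean and SD beside each group. The HFD libraries lie above all LFD libraries for Sparc and Tnc only, while the diets overlap in all other genes shown.

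**Figure D2:**
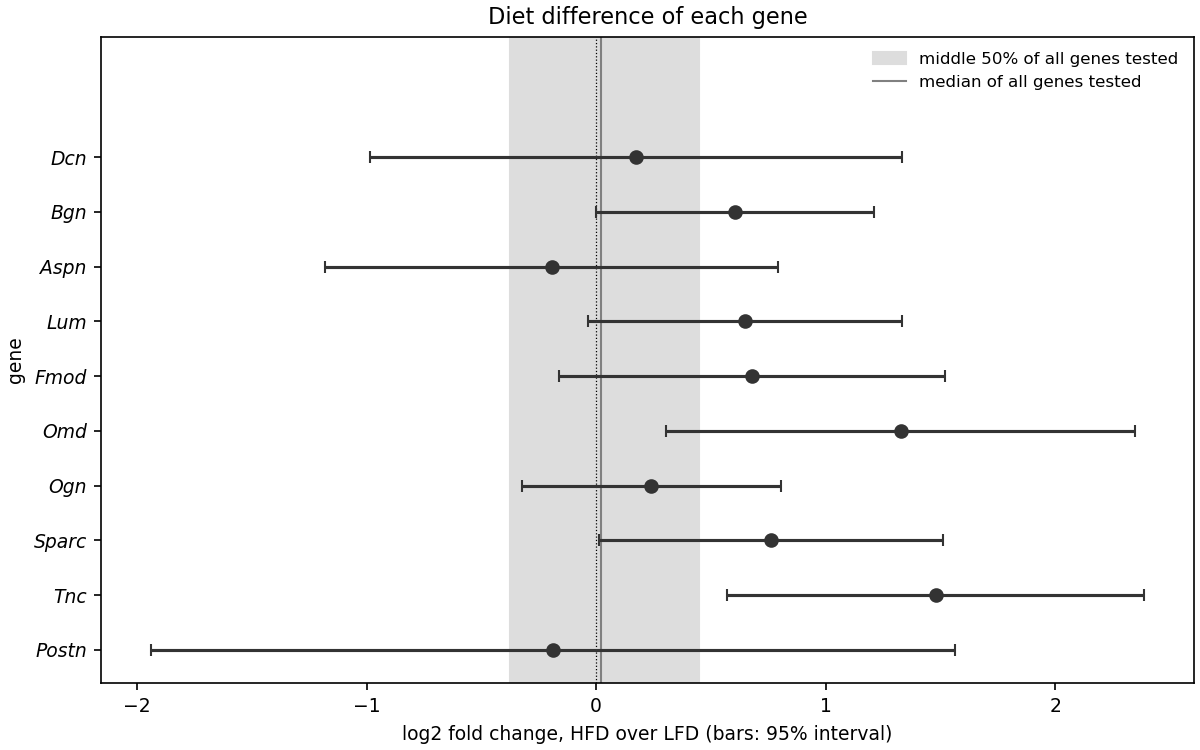
Log2 fold change (HFD over LFD) of each gene with its 95% interval from edgeR, beside the median (0.02) and the middle 50% (-0.37 to 0.45) of all tested genes. Tnc and Omd have the highest values, and the intervals of Dcn, Aspn, Lum, Fmod, Ogn and Postn include 0.

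Among the matricellular genes, Tnc (ENSMUSG00000028364, mm10 chromosome 4, 63959785 to 64047015, minus strand) had the highest fold change of the 10. Tenascin C is a large matrix glycoprotein of perichondrium, tendon attachments and healing tissue that loosens cell adhesion. It measured 797, 809 and 482 CPM in HFD 2, 3 and 4, against 159, 386, 300.1 and 154 CPM in LFD 1 to 4. The groups did not overlap, although LFD 2 and LFD 3 came close to HFD 4. The means were 696 ± 185 CPM in HFD and 249.7 ± 113 CPM in LFD, a log2 fold change of 1.48 ± 0.39 (SE, 95% interval 0.57 to 2.39), with an adjusted p of 0.338 in edgeR and 0.0300 in DESeq2. Its log2 fold change ranged from 1.31 to 1.85 over 18 alternative fits, with adjusted p-values from 0.0300 (DESeq2) to nearly 1 in edgeR. A gene on the opposite strand that overlaps Tnc, 8030451A03Rik, had 0 to 5 counts per library.

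Sparc (ENSMUSG00000018593, chromosome 11, 55394500 to 55423183) encodes osteonectin, a secreted protein that binds collagen and calcium. It measured 26281, 23865 and 19325 CPM in HFD 2, 3 and 4, against 14696, 12764, 12392 and 14751 CPM in LFD 1 to 4. Every HFD library lay above every LFD library, and the 4 LFD values lay within 1.19-fold of each other. The log2 fold change was 0.76 ± 0.33 (SE, 95% interval 0.01 to 1.51), with an adjusted p of 0.657 in edgeR and 0.00407 in DESeq2. It ranged from 0.54 to 0.88 over the 18 alternative fits.

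Postn (ENSMUSG00000027750, chromosome 3, 54361109 to 54391037) encodes periostin, a matrix protein of the periosteum that takes part in collagen assembly. It measured 319.5, 182 and 87.6 CPM in HFD 2, 3 and 4, against 35.6, 477, 211 and 172 CPM in LFD 1 to 4. The highest and the lowest library were both LFD, 13.4-fold apart, which was the widest spread within a diet among the 10 genes. The groups overlapped fully (log2 fold change -0.19 ± 0.76, SE, adjusted p = 0.959), and the sign turned without HFD 4 (0.17) or LFD 2 (0.49).

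Among the SLRPs, Bgn, Lum and Fmod had similar fold changes. Bgn (ENSMUSG00000031375, X, 73483602 to 73495933) encodes biglycan, a chondroitin or dermatan sulfate proteoglycan of bone whose loss in mice lowers bone mass. It measured 1314, 1366 and 942 CPM in HFD 2, 3 and 4, against 818, 713, 669 and 973 CPM in LFD 1 to 4. HFD 4 lay just below LFD 4, and the other HFD libraries were above all LFD libraries (log2 fold change 0.61 ± 0.26, SE, adjusted p = 0.663). Sparc and Bgn kept nearly the same proportion throughout, with a ratio per kilobase of 28.1 to 33.03 in HFD and 24.4 to 29.8 in LFD.

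Lum (ENSMUSG00000036446, chromosome 10, 97565128 to 97572703) encodes lumican, and Fmod (ENSMUSG00000041559, chromosome 1, 134037254 to 134048277) encodes fibromodulin, both keratan sulfate proteoglycans that bind fibrillar collagen. Lum measured 991, 810.1 and 592 CPM in HFD 2, 3 and 4, against 365, 602, 439.6 and 629 CPM in LFD 1 to 4. Fmod measured 4793, 4478 and 2680 CPM in HFD 2, 3 and 4, against 2762, 2165, 1624 and 3400 CPM in LFD 1 to 4. In both genes HFD 2 and HFD 3 stood above all LFD libraries, and HFD 4 lay inside the LFD range. The log2 fold changes were 0.65 ± 0.30 for Lum (SE, adjusted p = 0.681) and 0.68 ± 0.37 for Fmod (adjusted p = 0.693). Over the 18 alternative fits that of Lum ranged from 0.34 to 0.83 and that of Fmod from 0.25 to 0.90.

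Omd (ENSMUSG00000048368, chromosome 13, 49582462 to 49592822) encodes osteomodulin, or osteoadherin, a keratan sulfate proteoglycan found mainly in mineralized matrix. It measured 802, 442 and 174 CPM in HFD 2, 3 and 4, against 204, 169.5, 199.6 and 179.99 CPM in LFD 1 to 4. HFD 4 lay inside the narrow LFD range, and HFD 2 was 4.61-fold above HFD 4. The log2 fold change of 1.33 ± 0.44 (SE, 95% interval 0.31 to 2.35, adjusted p = 0.510) was 0.70 without HFD 2 (unadjusted p = 0.0904, edgeR) and 0.23 with the share of erythroid counts as a covariate (unadjusted p = 0.534, edgeR). HFD 2 also had the lowest share of erythroid counts, 2.89%, against 8.31% in HFD 3, 11.5% in HFD 4 and 10.8% to 15.8% in LFD libraries.

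Dcn (ENSMUSG00000019929, chromosome 10, 97479609 to 97518143) encodes decorin, the proteoglycan that coats collagen I fibrils and binds TGF-beta. It measured 4408, 3790 and 4478 CPM in HFD 2, 3 and 4, against 5770.5, 1831, 1810 and 5588 CPM in LFD 1 to 4. The 3 HFD libraries lay close together, in the gap between LFD 2 and 3 on one side and LFD 1 and 4 on the other. The log2 fold change was 0.17 ± 0.50 (SE, 95% interval -0.99 to 1.33, adjusted p = 0.945), and its sign turned without LFD 2 (-0.06), without LFD 3 (-0.05) and with the erythroid share as a covariate (-0.06).

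Ogn (ENSMUSG00000021390, chromosome 13, 49608046 to 49624501) encodes osteoglycin, also called mimecan, an SLRP known from bone and cornea. It measured 198, 179 and 208 CPM in HFD 2, 3 and 4, against 224, 119, 148 and 169 CPM in LFD 1 to 4, so that LFD 1 stood above all HFD libraries. The log2 fold change was 0.24 ± 0.25 (SE, adjusted p = 0.817), with 0.43 without LFD 1 and 0.11 without LFD 2. Aspn (ENSMUSG00000021388, chromosome 13, 49544443 to 49567565) encodes asporin, which has an aspartate-rich stretch in place of glycosaminoglycan chains and competes with decorin for collagen. It measured 72.2, 19.2 and 62.0 CPM in HFD 2, 3 and 4, against 47.2, 73.8, 46.4 and 66.6 CPM in LFD 1 to 4. HFD 3 alone was low, 3.76-fold below HFD 2, and the remaining libraries of both diets overlapped. The log2 fold change was -0.19 ± 0.43 (SE, adjusted p = 0.924) in edgeR and 0.21 without HFD 3, and it was -1.15 in limma-voom with library quality weights (unadjusted p = 0.0317, adjusted p = 0.259).

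The members differed in how they varied among libraries. The distance used here was the root mean square difference of log2 CPM over the 7 libraries after each gene was centred on its own mean. This distance is not scaled by how much a gene varies, so it tends to be larger for genes that vary more. Among the 45 pairs it was smallest for Sparc and Bgn (0.13), Bgn and Fmod (0.19), and Sparc and Fmod (0.26), and largest for Dcn and Postn (1.64), with a median of 0.75. The ratio of Dcn to Postn per kilobase was 20.6, 31.0 and 76.2 in HFD 2, 3 and 4, and 242, 5.72, 12.8 and 48.3 in LFD 1 to 4, a range of 42.2-fold.

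**Figure D3:**
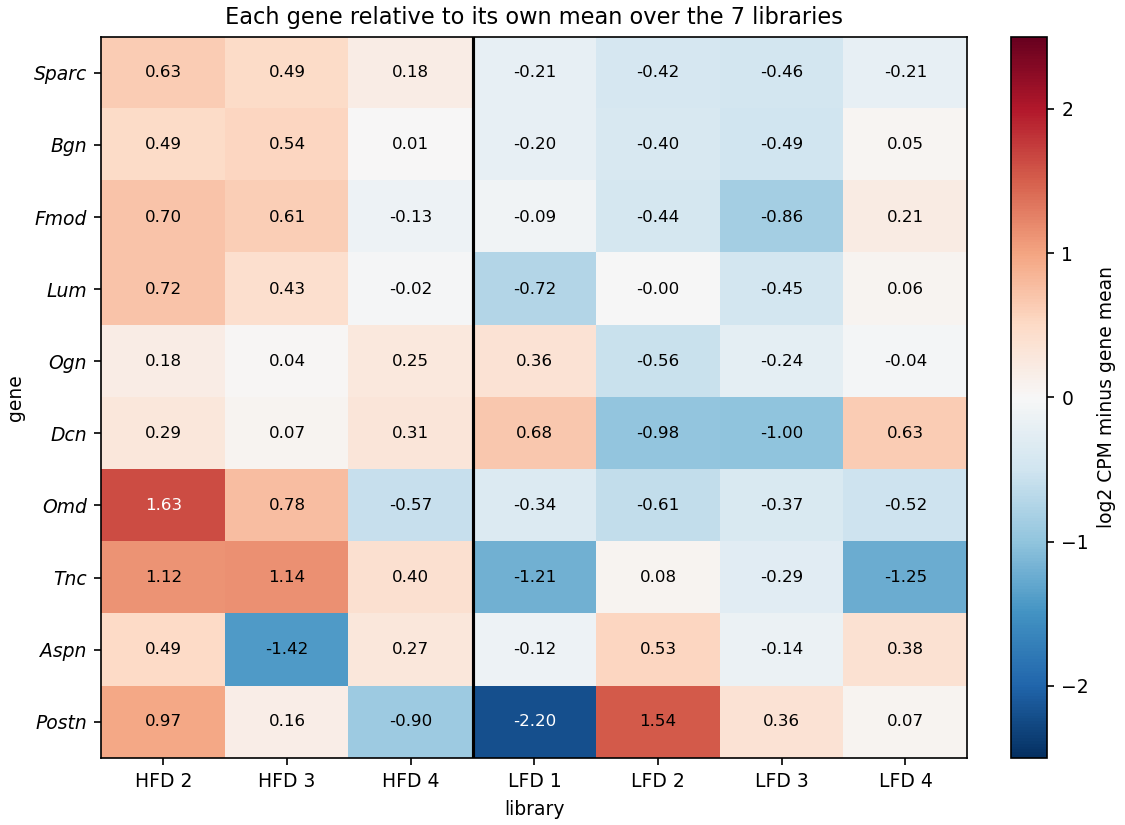
Log2 CPM of each gene minus its mean over the 7 libraries, with HFD libraries left of the line. Sparc, Bgn and Fmod share a pattern, and in LFD 1 Dcn is at 0.68 while Tnc is at -1.21 and Postn at -2.20.

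Within LFD, Dcn was high in libraries 1 and 4 and low in 2 and 3, whereas Tnc was high in 2 and 3 and low in 1 and 4. Prelp, an SLRP that anchors basement membranes to tissue, had 3680, 1546, 1981 and 2990 CPM in LFD 1 to 4, with the order of libraries 1 and 4 above 2 and 3 that Dcn showed. That order was not particular to Dcn and Prelp. Libraries 1 and 4 also stood above 2 and 3 for Sparc, Bgn, Fmod and Ogn, and for Chad, Comp and Thbs1. Postn had the order of Tnc, and Lum, Omd and Aspn had neither. Of the osteoblast markers, the collagen I genes Col1a1 and Col1a2 summed to 8650 CPM in LFD 1 and 16398 CPM in LFD 4, and to 39793 CPM in LFD 2 and 35609 CPM in LFD 3. The other 6 osteoblast markers did not share that order, with 4395 CPM in LFD 1, 3614 CPM in LFD 4, 3893 CPM in LFD 2 and 4335 CPM in LFD 3. Summed erythroid markers were 97963 CPM in LFD 1 and 124192 CPM in LFD 4, and 153778 CPM in LFD 2 and 176863 CPM in LFD 3. The part of erythroid cells in the levels of Dcn and Tnc was not tested. Across HFD libraries Dcn spanned 1.18-fold, against 3.19-fold in LFD libraries, with a coefficient of variation of 8.96% in HFD and 59.5% in LFD.

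**Figure D4:**
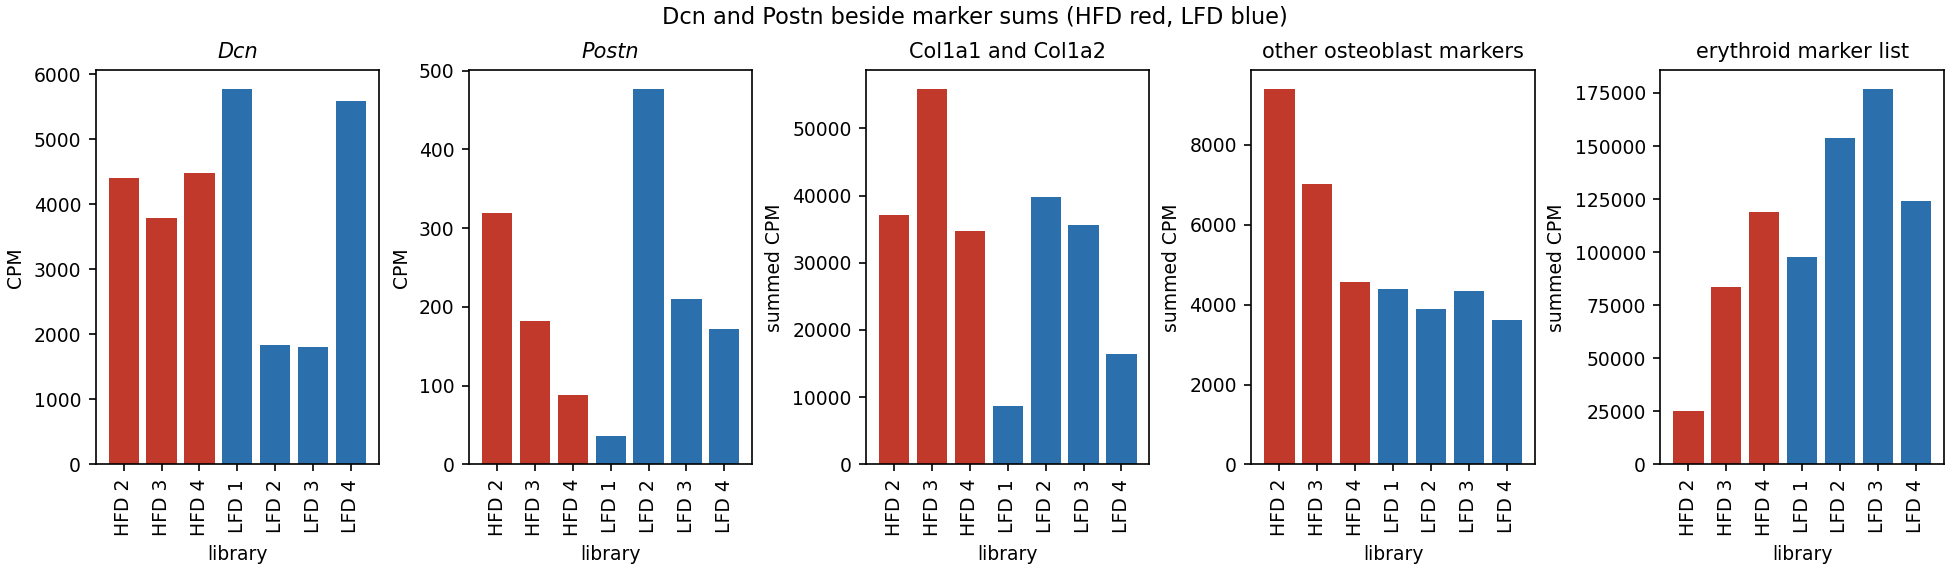
CPM of Dcn and Postn and the summed CPM of Col1a1 and Col1a2, of the other 6 osteoblast markers and of the erythroid list in each library (HFD red, LFD blue, axes from 0). LFD 2 and LFD 3 are low in Dcn and high in collagen I and erythroid sums beside LFD 1 and LFD 4, an order that the other osteoblast markers do not share.

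Several of the 10 genes are neighbours in the genome. Lum starts 46984 bases after the end of Dcn, with Kera and Epyc behind it. Aspn, Omd and Ogn follow one another on the plus strand with gaps of 14896 and 15223 bases, after Ecm2. The distances within these clusters were 0.75 for Dcn and Lum, 0.73 for Ogn and Aspn, 0.76 for Omd and Ogn and 1.13 for Omd and Aspn, against a median of 0.66 over the 41 other pairs. The ratio of Omd to Aspn per kilobase was 11.6, 24.1 and 2.94 in HFD 2, 3 and 4 and 2.40 to 4.54 in LFD libraries. That of Dcn to Lum was 1.87 to 3.17 in HFD and 1.28 to 6.63 in LFD. The span of Cenpp lies on the opposite strand across Aspn, Omd and Ogn, and Cenpp had 420 to 820 counts per library. Overlap of exons was not checked and the strand setting of the counting is unstated. Whether the overlap affected the counts of these genes is therefore not known.

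For each member, the genes with the most similar course over the 7 libraries were looked up by the same distance among genes with a mean of at least 8 CPM. Sparc was closest to Rpn1 (0.05), a subunit of the oligosaccharyltransferase, and to Fap (0.06), a stromal surface protease. Bgn was closest to Edem1 (0.06) and the X-linked gene Flna (0.09), and Ogn to Tmem68 (0.06) and Tsr2 (0.07). Lum was closest to Rcn1 (0.12), Fmod to Ubfd1 (0.10), Dcn to Fry (0.15), Aspn to Fam122b (0.20) and Omd to Nnmt (0.25). Tnc, nearest to the osteoblast cadherin Cdh11 (0.27), and Postn, nearest to Gzf1 (0.43), had their nearest genes farther away. These 2 genes also varied most. The root mean square of centred log2 CPM was 0.91 for Tnc and 1.14 for Postn, against 0.29 for Ogn, 0.37 for Bgn and 0.40 for Sparc. Small and large distances therefore reflect in part how much each gene varied.

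The 11 other SLRP genes were described in the same way. Of 9 tested, 8 had a log2 fold change above 0 and 1 below it, with a median of 0.38. In edgeR 0 passed and 0 were at an unadjusted p under 0.05, and DESeq2 called 0 of 11. Over all tested genes, 51.5% were above 0, and 5.18% were higher and 2.35% lower at an unadjusted p under 0.05. The shares called were 0.035% in edgeR and 2.25% in DESeq2. Chad, the cartilage protein chondroadherin, was the most abundant with 11170 ± 2795 CPM in HFD and 9609 ± 2937 CPM in LFD (log2 fold change 0.22, adjusted p = 0.906). Prelp measured 2866 ± 269.6 CPM in HFD and 2549 ± 967 CPM in LFD. Podnl1 measured 31.7 ± 4.40 CPM in HFD and 15.9 ± 10.8 CPM in LFD (0.99 ± 0.52, SE, adjusted p = 0.693). Epyc, an SLRP of cartilage, had a log2 fold change of 0.45 (0.69 without LFD 4, 0.27 without LFD 3). Chadl had 0.38 (0.088 without HFD 2, 0.65 without HFD 3). Optc and Nyx were too low to test.

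The 28 other matricellular genes gave 21 above 0 and 6 below it of 27 tested (median 0.43), with 5 higher and 0 lower at an unadjusted p under 0.05 (5.18% and 2.35% of all tested genes, of which 51.5% were above 0) and 0 passing in edgeR. Fbln5, the elastic fibre protein fibulin 5, measured 166, 138 and 83.4 CPM in HFD 2, 3 and 4, against 11.5, 32.2, 3.36 and 14.6 CPM in LFD 1 to 4. All HFD libraries lay above all LFD libraries (log2 fold change 3.07 ± 0.65, SE, adjusted p = 0.254 in edgeR, 0.000397 in DESeq2 and 0.0387 in limma-voom). Ccn5, a growth regulator that lacks the last domain of its family, measured 94.1 ± 4.10 CPM in HFD and 35.5 ± 15.2 CPM in LFD (1.41 ± 0.36, adjusted p = 0.318 in edgeR and 0.0261 in DESeq2). Ccn4, a Wnt target, measured 62.8 ± 9.02 CPM in HFD and 40.5 ± 8.04 CPM in LFD (adjusted p = 0.531 in edgeR). The most abundant were Comp with 7337 ± 2373 CPM in HFD and 6101 ± 1790 CPM in LFD, Spp1 (osteopontin) with 5675 ± 1817 CPM in HFD and 3018 ± 706 CPM in LFD, and Thbs1 (thrombospondin 1) with 3104 ± 827 CPM in HFD and 2054 ± 557 CPM in LFD. Their adjusted p-values in edgeR were 0.879, 0.613 and 0.693.

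Genes that build chondroitin, dermatan and keratan sulfate chains, which SLRPs carry, gave 23 above 0 and 6 below it of 29 tested (median 0.38), with 3 higher and 0 lower at an unadjusted p under 0.05 and 0 passing in edgeR. Over all tested genes, 51.5% were above 0, 5.18% were higher and 2.35% lower at that level. Ust, which sulfates uronic acid in these chains, measured 35.3 ± 8.27 CPM in HFD and 16.2 ± 3.00 CPM in LFD (1.12 ± 0.26, SE, adjusted p = 0.278 in edgeR and 0.0108 in DESeq2). Dse, the epimerase that turns chondroitin into dermatan sulfate, measured 94.8 ± 22.4 CPM in HFD and 53.6 ± 20.4 CPM in LFD (adjusted p = 0.620 in edgeR). Chst11, a chondroitin sulfotransferase needed for the growth plate, measured 51.2 ± 12.5 CPM in HFD and 23.1 ± 11.8 CPM in LFD (adjusted p = 0.656 in edgeR). Chst12 (0.27), Fam20b (0.39), the kinase that primes chain growth, and Chpf (0.17) had the highest mean CPM of the list over all 7 libraries.

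**Figure D5:**
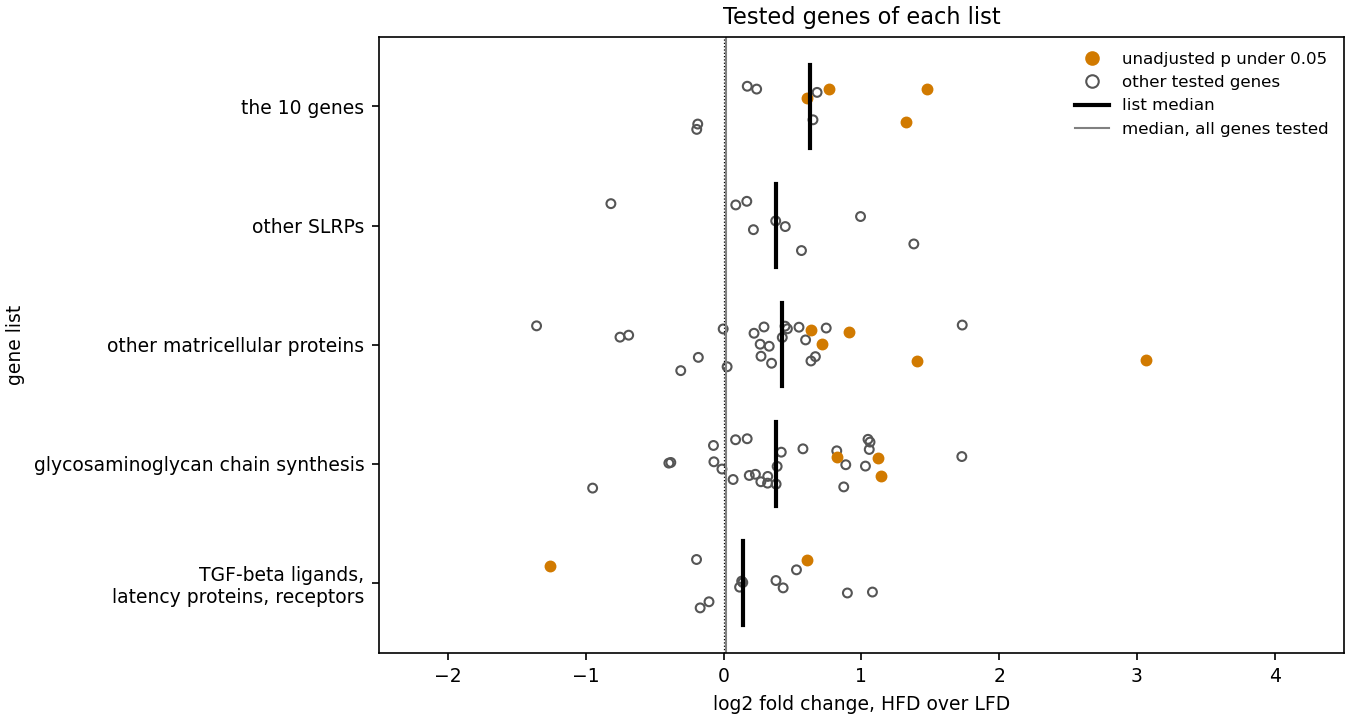
Log2 fold change (HFD over LFD) of the tested genes of each list, with filled points at an unadjusted p under 0.05 and black bars at the list medians (0.63, 0.38, 0.43, 0.38 and 0.14 from top to bottom). All 5 medians lie above the median of all tested genes (0.02), and Fbln5 is the point beyond 3.

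Genes for TGF-beta, the proteins that hold it latent in the matrix and its receptors gave 9 above 0 and 4 below it of 13 tested (median 0.14). At an unadjusted p under 0.05, 1 was higher and 1 lower, and 0 passed in edgeR. Over all tested genes, 51.5% were above 0, and 5.18% were higher and 2.35% lower at that level. Ltbp4, a latent TGF-beta binding protein of elastic fibres, measured 62.9, 78.2 and 91.2 CPM in HFD 2, 3 and 4, against 275, 151, 172 and 144 CPM in LFD 1 to 4. All HFD libraries lay below all LFD libraries (log2 fold change -1.26 ± 0.29, SE, adjusted p = 0.278 in edgeR and 0.00270 in DESeq2). Ltbp1 measured 147 ± 19.4 CPM in HFD and 96.9 ± 23.4 CPM in LFD (0.60 ± 0.23, adjusted p = 0.611 in edgeR). Fbn1, the microfibril protein fibrillin 1, had 0.53, and the abundant Ltbp3 (0.12), Tgfbr3 (-0.17) and Tgfbr2 (0.38) had adjusted p-values from 0.737 to 0.947 in edgeR.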

How the data were processed

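RNA of the sorted cells was measured in 7 libraries, made with a low-input SMART-Seq kit and Nextera XT per the labels' protocols. The authors deposited whole-number counts per Ensembl gene, not normalized. The submitters' processing notes list, without roles, the mm10 build and these tools: STAR 2.5.2b, HTSeq 0.11.2, bcl2fastq 2.20, DESeq2 1.26.0 and cutadapt. Nothing used here states the strand setting or the annotation release. Coordinates and exon lengths came from GENCODE M21, of the same build. Intervals on counts of PCR-amplified reads would cover counting error only, so none were computed.

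Counts were fitted with edgeR 4.0.16 in R 4.3.3 (TMM, filterByExpr, robust quasi-likelihood fit, diet as the term) over 14304 genes, with Benjamini-Hochberg adjustment over all of them at 0.05. SE is the log2 fold change divided by the square root of F. Levels per kilobase divide CPM by the union of annotated exons, so isoform use can shift them. Alternatives used DESeq2 1.42.0, limma 3.58.1 (voom with sample quality weights), other scalings, filters and covariates, a replicate block, and each library left out. The procedure was tested on simulated data. The outcome is not reported here, and no statement above rests on it. No 2 libraries of a diet held near-identical counts (chi-square over its degrees of freedom, 57.3 to 326), which excludes a library deposited again and says nothing of their biological independence.

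Members, lists, motifs and alternatives were chosen with earlier results of these data known. Named were all 10 members, and per pathway list the 3 genes with the smallest p and the 3 with the highest CPM. From cell type lists at most 2 of the most abundant genes were named, and per member up to 2 closest genes by distance. Optc, Nyx, Kera, Ecm2, Cenpp and Tnmd were named outside that rule.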

Additional observations from a re-analysis of the deposited data

Results flagged for a closer look

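Summed CPM of the 7 pericyte and smooth muscle markers was 584 in LFD 1, far from the other LFD libraries (331 to 356 CPM), and 153 to 160 CPM in HFD libraries. The gap took up 0.904 of the range of the LFD group, above the critical value of 0.829 for 4 samples. It was 1 of 52 measures checked, and chance flags about 1 in 20 groups. LFD 1 also had the lowest Postn (35.6 CPM) of the 7 libraries. None of the 10 genes had an LFD library that stood apart in this way, and groups of 3 were not checked.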

How the results depend on the processing

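The count of genes called was 5 in edgeR, 8 with no filter beyond 1 count, 0 with at least 10 counts in 4 libraries (988 at an unadjusted p under 0.05), 361 in DESeq2, 28 in limma-voom, 1 with the erythroid share as a covariate, and 1 to 6 with 1 library left out. Of the 10 genes, edgeR called 0 and DESeq2 2. At an unadjusted p under 0.05 there were 4, but 2 with RLE size factors, 2 with at least 10 counts in 4 libraries, 1 with the erythroid covariate, and 1 (without HFD 2) to 5 (without HFD 4) with 1 library left out. Deviations of same-numbered libraries correlated at -0.07, 0.07 and -0.26 (numbers 2, 3 and 4), and those of differently numbered libraries at -0.19 to 0.32. With so few libraries per diet, these values cannot settle whether the numbers pair libraries. A replicate block called 0 genes over shared numbers (1342 at an unadjusted p under 0.05) and 0 over all libraries (1335), left 1 and 1 of the 10 genes at an unadjusted p under 0.05, turned Tgfbr3 to 0.14 in both, and moved the median log2 fold change of all genes to 0.14 and 0.15, against 0.02.

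Log2 fold changes changed sign with the erythroid covariate for Dcn (-0.059), Chad (-0.11), Prelp (-0.087), Comp (-0.26), Chst12 (-0.089), Chpf (-0.18), Ltbp3 (-0.22) and Tgfbr2 (-0.075). They did so in limma-voom for Chadl (-0.18), Chad (-0.066), Comp (-0.032) and Tgfbr3 (0.058). With 1 library left out, sign changes lay within ranges of -0.056 to 0.47 for Dcn, -0.53 to 0.21 for Aspn, -0.73 to 0.49 for Postn, -0.010 to 0.41 for Prelp, -0.036 to 0.43 for Comp, -0.29 to 0.14 for Tgfbr3 and -0.040 to 0.39 for Ltbp3. The causes were not tested. Tnc, Sparc, Bgn, Lum, Fmod, Omd and Ogn kept a positive sign in all 18 alternatives.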
